A study of Glycine max with 18 samples.

Results

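The measurement described here is the difference between 2 soybean (Glycine max) cultivars, DT2008 and Williams 82 (W82), in how root transcripts changed between 2 and 10 h of dehydration. It was computed for each of 66195 probes as the interaction (DT-D10 - DT-D2) - (W-D10 - W-D2), from 12 of the 18 arrays of the series. DT-D10 and DT-D2 are roots of DT2008, the drought-tolerant cultivar, from 14-d-old plants detached and dried on paper towel for 10 h and for 2 h. W-D10 and W-D2 are roots of W82, the drought-sensitive cultivar, of the same age and dried for the same times. Each group had 3 arrays of the 66K soybean GeneChip, which the submitters describe as independent biological replicates. The 3 arrays each of well-watered DT2008 (DT-C) and W82 (W-C) roots were not used for the interaction and appear below only where they are named. No roots were sampled after 2 or 10 h with water, so the passage of time and dehydration cannot be told apart. The interaction compares equal hours of drying and not equal loss of water. The study reports a lower relative water content of the aerial parts in the drought-sensitive than in the drought-tolerant cultivar after both drying times. In its report the gap was wider after the longer drying. Water content was not analysed here, and how much of the interaction goes with this difference was not tested.

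Values are log2 intensities, each relative to the median of its probe over the 18 arrays, so a value of 1 is a doubling over that median. They hold no brightness, and the level of 1 gene cannot be set against that of another. A negative interaction means that a transcript rose less or fell more from 2 to 10 h in DT2008 than in W82, and a positive one the reverse. The same number is also the cultivar difference at 10 h (DT-D10/W-D10) minus that at 2 h (DT-D2/W-D2), so a difference between the cultivars that is the same at both times cancels. A called probe had an adjusted p below 0.05 in limma, with all probes in the adjustment, and an interaction of at least 2-fold, which is 1 on the log2 scale. The same rule, called up or down, was used for the comparisons of single groups. Errors of changes are standard errors (SE) of the fit. As whole roots were used, fewer cells of a type and less RNA per cell cannot be told apart.

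Roots that lose water accumulate the hormone abscisic acid (ABA), which acts through receptors, PP2C phosphatases and SnRK2 kinases on transcription factors of the bZIP, NAC, MYB and AP2/ERF families. Their targets include enzymes that make protective sugars such as galactinol and raffinose, transporters, and proteins that remodel the cell wall. Such responses come in waves, and transcripts that peak early differ from those that build up with prolonged water loss, so a cultivar can differ in timing as well as in height of a response.

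At these thresholds 262 probes (0.396% of 66195) changed differently from 2 to 10 h in the 2 cultivars. Of these, 171 (0.258%) had a negative interaction, with a median of -1.50 and a range of -3.49 to -1.02, and 91 (0.137%) a positive one, with a median of 1.33 and a range of 1.00 to 3.00. The median over all probes was -0.0036, and the median SE was 0.24. Without the fold threshold 276 probes passed, and 8351 had an unadjusted p under 0.05. Called probes were thus few among those tested.

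The number of calls rested on single arrays. It was 10, 159 and 43 without DT-D10 replicates 1, 2 and 3, and 1263, 9 and 58 without DT-D2 replicates 1, 2 and 3. It was 101, 79 and 263 without W-D10 replicates 1, 2 and 3, and 76, 9 and 208 without W-D2 replicates 1, 2 and 3. DT-D2 replicate 1 stood apart from its group, with correlations of 0.381 and 0.453 to the other 2 arrays, which correlated at 0.684 with each other. W-D10 replicate 3 stood apart likewise, with 0.369 and 0.411 to its group, against 0.591 between the other 2, and 160 of the 262 probes were still called without it. Without DT-D2 replicate 1, 260 of the 262 probes were still called. All 262 probes kept their sign in each of the 12 fits that left out 1 array, and 161 of the 171 negative and 80 of the 91 positive ones stayed at least 2-fold in each. Only 7 were called in all 12 fits, and the median over called probes was 3 of 12, so the number of fits is given with the genes named below.

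**Figure D1:**
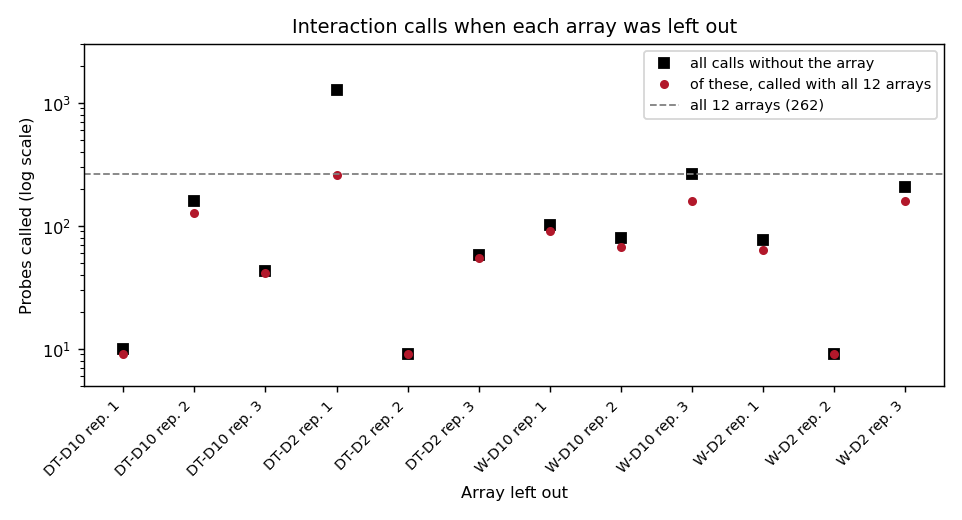
Probes called for the interaction (log axis) when each of the 12 arrays was left out, with squares for all calls and circles for those also called with all 12 arrays (dashed line, 262). Calls fell to 9 or 10 without DT-D10 replicate 1, DT-D2 replicate 2 or W-D2 replicate 2, and reached 1263 without DT-D2 replicate 1.

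Most probes with a negative interaction had a rise called in W82 or a fall called in DT2008, and few had both called. In 73 of the 171 (42.7%) the transcript was upregulated in W-D10/W-D2, with no call in DT-D10/DT-D2, and the median change in this class was 0.05 in DT2008 and 1.71 in W82. In 39 it was downregulated in DT-D10/DT-D2 with no call in W-D10/W-D2, at median changes of -1.39 in DT2008 and 0.19 in W82. In 6 it was upregulated in both, less in DT2008 (median 1.41) than in W82 (2.90). In 4 it was downregulated in DT2008 and upregulated in W82, in 1 it was downregulated in both, and in 48 neither change passed on its own. Those 48 had median changes of -0.66 in DT2008 and 0.62 in W82, so smaller changes in opposite directions also gave a negative interaction. Among all probes, DT-D10/DT-D2 was called in 2.17% (1.19% up, 0.980% down) and W-D10/W-D2 in 2.43% (1.43% up, 0.997% down). These classes share their arrays with the interaction and describe it.

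Probes with a positive interaction fell into mirrored classes. The transcript was downregulated in W-D10/W-D2 with no call in DT2008 in 37 of the 91 (40.7%), with median changes of 0.16 in DT2008 and -1.57 in W82. In 21 it was upregulated in DT-D10/DT-D2 with no call in W82, with medians of 1.35 in DT2008 and -0.11 in W82. In the other 33 neither change was called.

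**Figure D2:**
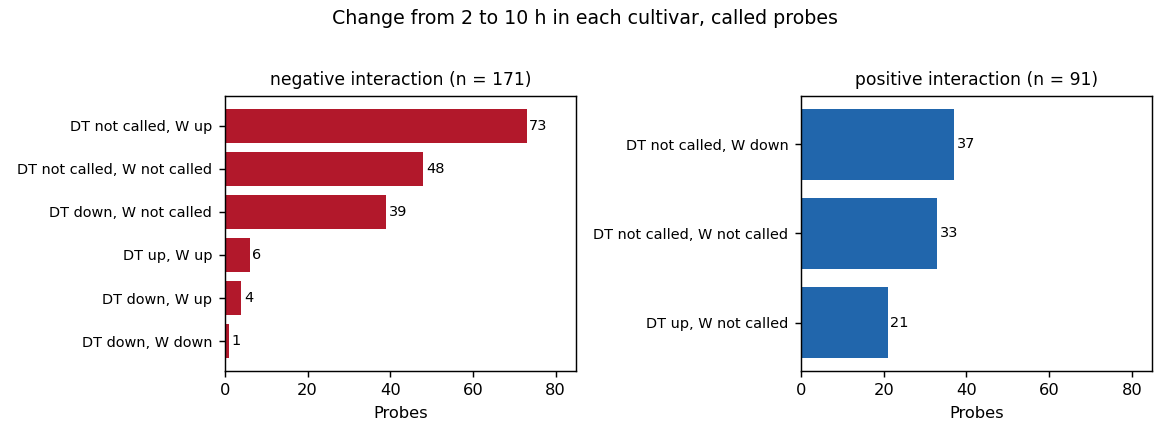
Number of called probes by their change from 2 to 10 h in DT2008 (DT) and in W82 (W), for 171 negative (left) and 91 positive (right) interactions, where up and down mean called in that cultivar. The longest bars are probes that changed in W82 and were not called in DT2008, 73 of the negative and 37 of the positive ones.

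Seen as a difference between the cultivars, the interaction lay mostly at 2 h. Of the 171 negative probes, DT2008 was above W82 at 10 h in 37 and at 2 h in 161, and the median difference was -0.44 at 10 h and 1.11 at 2 h. In 88 of them (51.5%) the transcript was upregulated in DT-D2/W-D2 with no call in DT-D10/W-D10, and in 28 it was downregulated in DT-D10/W-D10 with no call at 2 h. The 3 DT-D10 values lay above the 3 W-D10 values in 14 and below them in 91, whereas the DT-D2 values lay above the W-D2 values in 145 and below them in 7. Over all probes the DT-D10 values lay above the W-D10 values in 11.8% and below them in 9.93%, and the DT-D2 values above the W-D2 values in 17.3% and below them in 14.7%. As the 171 were chosen on these arrays, this is a description. DT-D10/W-D10 was called in 1.71% of all probes (0.515% up, 1.20% down) and DT-D2/W-D2 in 4.18% (1.65% up, 2.54% down).

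For the 91 positive probes DT2008 was below W82 at 10 h in 23 and at 2 h in 89, with a median difference of 0.30 at 10 h and -1.02 at 2 h. In 47 (51.6%) the transcript was downregulated in DT-D2/W-D2 with no call in DT-D10/W-D10. The size of the cultivar difference was larger at 2 h than at 10 h in 120 of the 171 negative and 72 of the 91 positive probes.

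**Figure D3:**
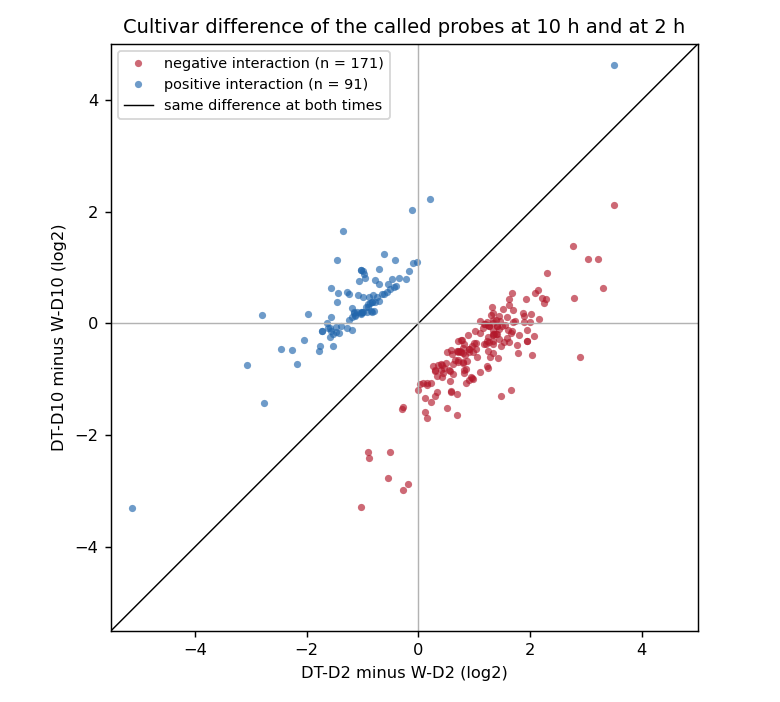
Each point is 1 called probe, placed by its cultivar difference at 2 h (DT-D2 minus W-D2, log2, horizontal) and at 10 h (DT-D10 minus W-D10, log2, vertical), with the diagonal marking equal differences. Points below the diagonal are the 171 negative interactions, centred at a median of 1.11 at 2 h and -0.44 at 10 h, and points above it are the 91 positive ones, at -1.02 and 0.30.

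The 6 well-watered arrays gave a measure that the interaction did not use. DT-C/W-C, fitted on those arrays alone, was called in 3.46% of all probes (1.40% up, 2.05% down). Among the 171 negative probes it was called in 21 (12.3%), with 16 upregulated (9.36%) and 5 downregulated (2.92%) in DT2008. Among the 91 positive probes it was called in 25 (27.5%), with 1 upregulated and 24 downregulated (26.4%). Both totals were above the share of all probes, although upregulation among the positive probes (1.1%) was not, and the side was in most cases that of the 2 h difference. Of the 88 negative probes upregulated only at 2 h, 11 were already higher in DT-C than in W-C, and of the 47 positive probes downregulated only at 2 h, 19 were already lower. For the remaining 77 and 28 no difference was called before dehydration. The shares were not set against each other in a test.

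Set against the well-watered roots of the same cultivar, 72 of the 171 negative probes were at least 2-fold higher in DT-D10 and 104 in DT-D2, counted on group means without a test. The counts in this paragraph were not made over all probes, so they describe the called probes only. In W82, 98 were at least 2-fold higher in W-D10 and 52 in W-D2. Another 21 were at least 2-fold lower in W-D2 than in W-C, and 19 of these were upregulated in W-D10/W-D2. In these 19 W-D2 was the lowest W82 group. As a negative interaction itself favours low W-D2 values, this is a description. Among the 91 positive probes 22 were at least 2-fold lower in W-D10 than in W-C and 1 was in W-D2, against 1 in DT-D10 and 12 in DT-D2.

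Of the 262 called probes 76 could be paired with exactly 1 gene, 60 negative and 16 positive. Names come mostly from tables of genes that the study had selected on these same arrays, among which 54 negative and 12 positive calls lie. In those 1414 selected probes the median interaction was -0.33 and 3.82% were called negative, against 0.01 and 0.136% in the 4419 named probes that were not selected. The preponderance of negative interactions among the genes below is therefore not independent evidence of a direction. Positive calls made up 0.849% of the selected probes. Among all 5833 probes with exactly 1 gene, 1.03% were called negative and 0.274% positive. Shares of the gene lists below are to be read beside these, and a list with 1 call describes that gene and not its family. Gene names in what follows are those of the best Arabidopsis match, and roles are those known in Arabidopsis unless stated.

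Genes of ABA turnover and sugar protection were among the negative calls. Glyma.01G153300 matches CYP707A1, an ABA 8'-hydroxylase that breaks the hormone down. It had -0.15, -0.20 and 0.05 in DT-D10, -0.37, 0.06 and -0.05 in DT-D2, -0.12, 0.52 and -0.19 in W-D10 and -1.78, -2.01 and -1.55 in W-D2. The W-D2 arrays lay far below all others, and the other 3 groups overlapped. The change was 0.02 in DT2008 and 1.86 in W82, an interaction of -1.83 (SE 0.28, adjusted p = 0.0197), called in 8 of the 12 fits without 1 array. In well-watered roots the means were 0.89 in DT-C and 1.13 in W-C, so both dehydrated W82 groups and both DT2008 groups lay below their own controls.

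Glyma.19G227800 matches galactinol synthase 2 (GolS2), which makes the galactosyl donor for raffinose. It had 2.35, 3.06 and 1.97 in DT-D10, 0.90, 1.21 and 0.80 in DT-D2, 2.26, 2.10 and 2.64 in W-D10 and -0.87, -1.08 and -0.80 in W-D2. At 10 h the cultivars overlapped, and at 2 h all DT2008 arrays were above all W82 arrays. The transcript rose in both cultivars, by 1.49 in DT2008 and 3.25 in W82, and the interaction was -1.76 (SE 0.33, adjusted p = 0.0429, 2 of 12 fits). It was also higher in DT-C than in W-C, by 1.62 (adjusted p = 0.0039).

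The 7 probes of galactinol and raffinose synthesis, all selected by the study, had 1 negative (14.3%) and 0 positive calls and a median interaction of -0.56. Both GolS1 matches, Glyma.10G145300 and Glyma.20G094500, had an interaction of -0.61 that was not called (adjusted p = 0.27 and 0.345). The 7 probes of ABA synthesis, turnover and transport, also all selected, had 1 negative call (14.3%), a median of -0.74 and all 7 interactions below 0. In that list Glyma.02G022200 and Glyma.01G042100, matches of the ABA importer AIT1 (listed as nitrate transporter 1:2), had -0.82 and -0.74 (adjusted p = 0.175 and 0.223).

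For ABA signalling, 1 of 22 probes for PP2C phosphatases, SnRK2 kinases and receptors (19 selected by the study) was called, negative, and the median was -0.11. That is 4.55% of the list, near the 3.82% of all study-selected probes. It was Glyma.04G205400, which matches the osmotic-stress kinase SnRK2.4, with -0.68, -0.59 and -0.73 in DT-D10, -0.03, -0.34 and -0.09 in DT-D2, 0.03, 0.03 and 0.19 in W-D10 and -0.43, -0.41 and -0.69 in W-D2. The cultivars did not overlap at either time, and their order was opposite, with DT2008 lower at 10 h and higher at 2 h. The interaction was -1.10 (SE 0.19, adjusted p = 0.033, 2 of 12 fits), while neither cultivar difference was called alone (-0.75 at 10 h, 0.35 at 2 h).

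Among transcription factors, 3 of 32 AP2/ERF probes (9.38%) had a negative call and none a positive one (median -0.46, 26 selected by the study). Glyma.05G049800, an AP2/ERF protein, had -0.08, -0.06 and 0.23 in DT-D10, -0.17, 0.06 and 0.08 in DT-D2, -0.09, 0.39 and 0.58 in W-D10 and -1.67, -1.53 and -1.57 in W-D2. As with CYP707A1, W-D2 alone stood apart. The change was 0.04 in DT2008 and 1.88 in W82 and the interaction -1.84 (SE 0.24, adjusted p = 0.0136, 9 of 12 fits).

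Glyma.05G049900, whose identifier follows that of the gene above, matches DDF1, a member of the DREB subfamily that binds dehydration-responsive promoters. Its values were 0.33, 0.43 and 0.34 in DT-D10, -0.68, -0.54 and -0.52 in DT-D2, 0.33, 0.89 and 0.03 in W-D10 and -2.18, -1.96 and -1.82 in W-D2. Here DT2008 was also lower at 2 h than at 10 h, yet above all W82 arrays at 2 h. The interaction was -1.46 (SE 0.26, adjusted p = 0.0356, 3 of 12 fits). The third gene, Glyma.01G231000, changed by 0.85 in DT2008 and 2.03 in W82 (interaction -1.18, SE 0.21, adjusted p = 0.035, 3 of 12 fits). Whether probes of such related genes also pick up each other's transcripts was not tested.

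All 3 AP2/ERF genes had their lowest group mean in W-D2, at -1.59, -1.99 and -0.84, against 0.52, 0.29 and 0.01 in W-C. In DT-C the means were -0.05, -0.07 and -0.81, so the third gene was about as low there as in W-D2. A negative interaction, for which the genes were chosen, itself favours a low W-D2 mean. A pair of DREB26 matches missed the threshold, Glyma.14G147500 with -1.12 (adjusted p = 0.0828) and Glyma.06G111300 with -1.23 (adjusted p = 0.0854).

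Of 32 NAC probes (17 selected by the study) 1 was called, negative (3.12%). Negative calls made up 3.82% of all study-selected probes and 0.136% of named probes not selected. As the list mixes both kinds, neither share is its match. The call was Glyma.12G149100, a match of RD26, a NAC factor induced by ABA and drought. It had 1.89, 2.30 and 1.68 in DT-D10, 0.39, 0.83 and 0.58 in DT-D2, 2.44, 2.23 and 1.78 in W-D10 and -1.01, -0.81 and -0.39 in W-D2. The pattern was that of GolS2, with overlap at 10 h, none at 2 h and a rise in both cultivars. The interaction of -1.53 (SE 0.31) lay at the threshold (adjusted p = 0.0498, 4 of 12 fits), and DT-C exceeded W-C by 1.59 (adjusted p = 0.0062). The median of the NAC list was -0.16.

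Glyma.02G009800, a match of MYB2, a dehydration-responsive factor, was the 1 call among 37 MYB probes (2.7%, median -0.09). It had -1.55, -1.07 and -1.00 in DT-D10, -0.29, -0.52 and -0.68 in DT-D2, 1.49, 1.03 and 0.77 in W-D10 and 0.39, 0.56 and 0.29 in W-D2. DT2008 was below W82 in every array at both times, and the distance widened, to -2.30 at 10 h against -0.91 at 2 h. The interaction was -1.39 (SE 0.28, adjusted p = 0.0498, 2 of 12 fits). In well-watered roots the difference was already -1.57 (adjusted p = 0.000286).

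Wall remodelling held the largest single interaction. Glyma.17G151700 matches expansin-like B1 (EXLB1), from a family related to the wall-loosening expansins. It had -0.06, 0.46 and 0.06 in DT-D10, 2.72, 3.29 and 3.27 in DT-D2, 1.11, 0.68 and 0.48 in W-D10 and -0.33, -0.34 and 1.28 in W-D2. DT-D2 stood far above every other array, and 1 W-D2 array, replicate 3, lay above the other 2. The transcript fell by 2.94 from 2 to 10 h in DT2008, while the change in W82 was 0.55 (adjusted p = 0.404), and the interaction was -3.49 (SE 0.49, adjusted p = 0.0147, 9 of 12 fits, -4.03 to -3.22 without 1 array). DT-C and W-C means were -1.39 and -1.87, a difference that was not called (0.47, adjusted p = 0.18). The dehydrated group means, 0.15 in DT-D10, 3.09 in DT-D2, 0.76 in W-D10 and 0.20 in W-D2, all lay above these.

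Xyloglucan endotransglucosylase/hydrolases (XTH), enzymes that cut and rejoin wall xyloglucan, gave the other 3 calls of this list. Glyma.13G095200, a match of XTH23 (XTR6), had 0.85, 1.04 and 0.70 in DT-D10, -0.17, 0.11 and 0.08 in DT-D2, 0.83, 0.81 and 0.82 in W-D10 and -1.23, -0.99 and -1.09 in W-D2. At 10 h the cultivars overlapped and at 2 h W82 was lower in all 3 arrays. The interaction was -1.06 (SE 0.19, adjusted p = 0.0363, 3 of 12 fits). Before dehydration the order was opposite to that at 2 h, with means of -1.19 in DT-C and -0.25 in W-C (difference -0.94, adjusted p = 0.0253, under 2-fold).

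Glyma.13G094900, a match of the touch-induced TCH4, changed by 0.60 in DT2008 and 1.81 in W82 (interaction -1.21, SE 0.23, adjusted p = 0.0447, 2 of 12 fits). Glyma.17G065000, whose best match is XTH16 while a separate ortholog column of the study pairs it with the XTH23 locus, had 0.79, 0.85 and 1.07 in DT-D10, 0.30, 0.47 and 0.23 in DT-D2, 1.88, 2.01 and 1.26 in W-D10 and -0.79, -0.23 and -0.55 in W-D2. W82 thus spanned a wider range than DT2008, above it at 10 h and below it at 2 h in all arrays. Its interaction was -1.67 (SE 0.28, adjusted p = 0.0292, 3 of 12 fits).

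The whole list of 36 wall-loosening and pectin probes (24 selected by the study) had 4 negative (11.1%) and 0 positive calls. Its median was nevertheless 0.03, with 20 members above 0. Members above 0 included expansins, such as the EXPA4 match Glyma.07G132600 with 1.51 (adjusted p = 0.0638), none of them called. In the neighbouring list of cellulose, extensin and arabinogalactan proteins (11 probes, median 0.31) the 1 call (9.09%) was negative, Glyma.01G240200, a match of COBRA-like 11. It had 1.11, 1.21 and 1.15 in DT-D10, 0.65, 1.18 and 0.82 in DT-D2, 0.95, 1.26 and 1.11 in W-D10 and -0.79, -1.12 and -0.65 in W-D2. Among the dehydrated groups only W-D2 lay apart, and the interaction was -1.68 (SE 0.23, adjusted p = 0.0136, 9 of 12 fits). Well-watered means were lower still, at -2.26 in DT-C and -2.18 in W-C, against -0.85 in W-D2. Unlike CYP707A1, this transcript was thus above its W82 control in W-D2.

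Ion transport and calcium signalling followed. Glyma.04G212200 matches CHX15, a cation/proton exchanger. It had 1.23, 1.73 and 1.31 in DT-D10, 1.17, 1.93 and 1.65 in DT-D2, 0.36, 0.54 and -0.09 in W-D10 and -1.59, -1.65 and -1.10 in W-D2. DT2008 was above W82 in all arrays at both times. The change from 2 to 10 h was -0.16 in DT2008 (SE 0.23, adjusted p = 0.776), while W82 rose by 1.71. The cultivar difference narrowed to 1.15 at 10 h, against 3.03 at 2 h and 2.43 in well-watered roots, and the interaction was -1.88 (SE 0.32, adjusted p = 0.0309, 4 of 12 fits). A second CHX15 match, Glyma.06G154200, had -1.26 and was not called (adjusted p = 0.151).

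Of 39 calcium signalling probes (30 selected by the study) 3 were called (7.69%), all negative, and the median was -0.29. Glyma.06G258000, an EF-hand calcium-binding protein, had 1.04, 0.83 and 1.06 in DT-D10, 0.10, 0.25 and 0.34 in DT-D2, 2.25, 1.75 and 2.56 in W-D10 and -0.62, -0.32 and -0.10 in W-D2. In this gene the cultivars separated at both times in opposite order, but only the 10 h difference was called (-1.21, adjusted p = 0.00224, against 0.58, adjusted p = 0.0643, at 2 h). The interaction was -1.79 (SE 0.28, adjusted p = 0.0215, 7 of 12 fits).

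Glyma.03G232500, a calmodulin-binding protein, had an interaction of -1.50 (SE 0.22, adjusted p = 0.0152, 8 of 12 fits). Glyma.16G218300, a match of the cyclic nucleotide-binding transporter CNBT1, had 0.00, -0.05 and 0.45 in DT-D10, 1.12, 1.57 and 1.13 in DT-D2, -0.02, 0.07 and 0.17 in W-D10 and -0.06, -0.12 and 0.00 in W-D2. Only DT-D2 was raised, as the other dehydrated groups lay near the well-watered means of -0.23 in DT-C and -0.25 in W-C. The transcript fell by 1.14 in DT2008, with 0.13 in W82 (interaction -1.27, SE 0.23, adjusted p = 0.0363, 2 of 12 fits), and well-watered roots differed by 0.02.

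**Figure D4:**
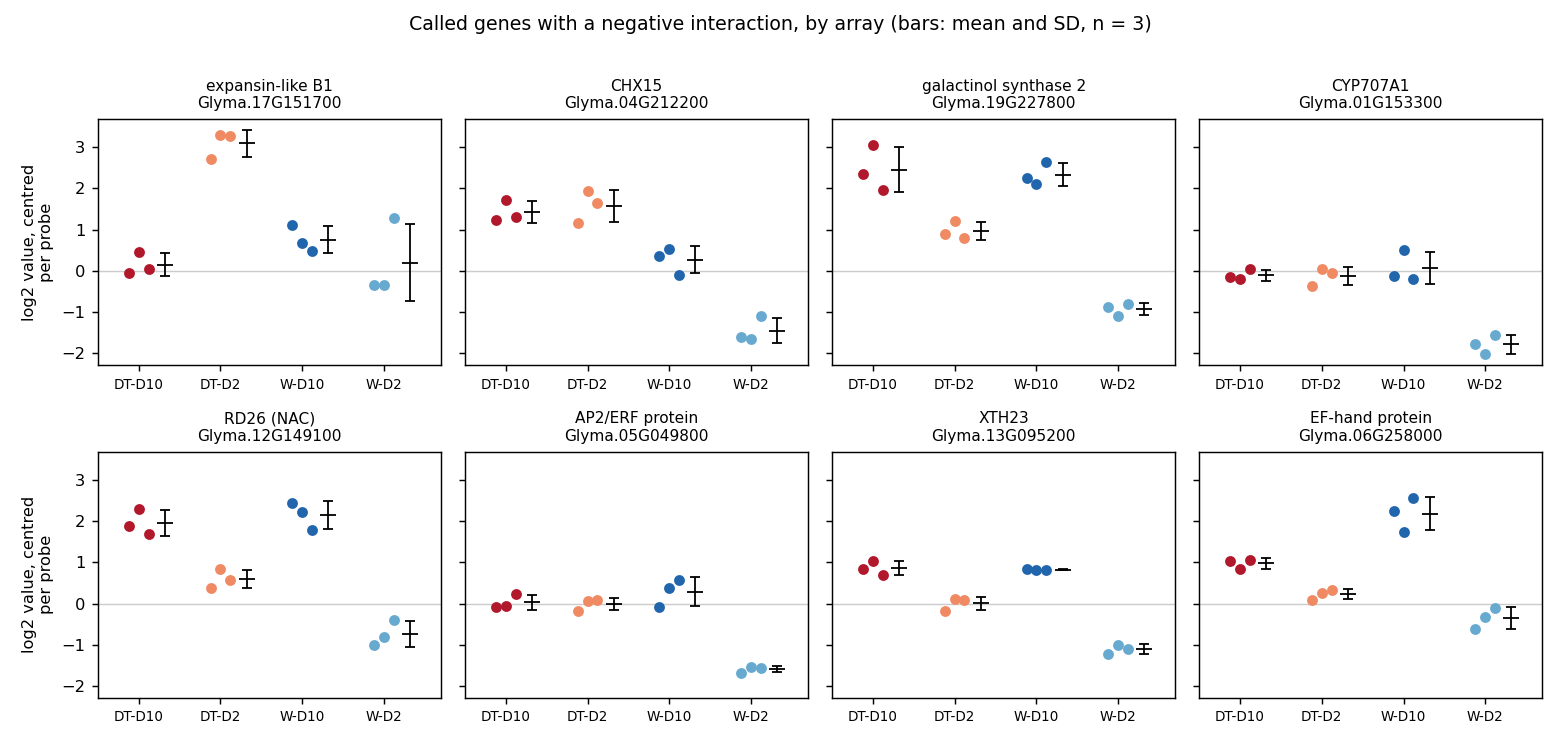
Centred log2 values of 8 called genes with a negative interaction on the 12 arrays (points), by group from DT-D10 to W-D2, with mean and SD (n = 3) at the right of each group. W-D2 is the low group in CYP707A1, the AP2/ERF protein, GolS2, RD26 and XTH23, DT-D2 the high group in expansin-like B1, and W-D10 the high group in the EF-hand protein.

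Negative calls also included genes of signalling and other enzymes. Glyma.18G273100 matches ANX2, a malectin-domain receptor-like kinase known from pollen tubes, and was the 1 call among 48 receptor-like kinases (2.08%, list median -0.16). Its interaction was -1.24 (SE 0.23, adjusted p = 0.037, 3 of 12 fits). Glyma.02G125600 matches GH3.1, of the enzyme family that conjugates auxin to amino acids, and was the 1 call among 29 auxin-response probes (3.45%, list median -0.07). Its interaction was -1.24 (SE 0.21, adjusted p = 0.0311, 2 of 12 fits). Glyma.14G081500, a match of the patatin-like phospholipase PLP2, fell by 1.02 in DT2008 and rose by 1.14 in W82 (interaction -2.16, SE 0.37, adjusted p = 0.0309, 3 of 12 fits). Its DT-D2 values of 0.65, 1.82 and 1.43 lay above its W-D2 values of -0.50, -0.09 and -0.80.

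Glyma.13G064300 matches an Arabidopsis plant cysteine oxidase, an enzyme of oxygen sensing, and was the 1 call among 20 matches of core low-oxygen genes (5.0%, median -0.41, all selected by the study). It had -0.55, -0.51 and -0.46 in DT-D10, -0.28, 0.51 and 0.31 in DT-D2, -0.17, -0.69 and 0.17 in W-D10 and -1.42, -1.13 and -1.24 in W-D2. W-D2 was the lowest group, while means in well-watered roots were the highest, at 1.04 in DT-C and 1.65 in W-C. The interaction was -1.72 (SE 0.31, adjusted p = 0.0363, 2 of 12 fits). The wound-responsive family gene Glyma.13G282400 of the same list had -1.05 and was not called (adjusted p = 0.0638).

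Glyma.06G009100 matches STH2, a B-box zinc finger protein of light signalling, and was the 1 call in the list of 13 clock and light-response probes (7.69%, median 0.04). It had 0.46, 0.62 and 0.51 in DT-D10, 1.28, 1.73 and 1.62 in DT-D2, -0.95, -1.15 and -0.46 in W-D10 and -1.48, -0.94 and -1.27 in W-D2. DT2008 was above W82 in all arrays, by 1.38 at 10 h, 2.77 at 2 h and 1.79 in well-watered roots. The interaction was -1.39 (SE 0.27, adjusted p = 0.0484), called in 1 of the 12 fits. The second STH2 match, Glyma.14G216500, had 0.16 and was not called.

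A peroxidase and a glycosyltransferase showed 2 of the ways in which a negative interaction arose. Glyma.20G171900, the 1 call among 26 class III peroxidases (3.85%, list median 0.18), changed by 0.08 in DT2008 and 1.35 in W82 (interaction -1.26, SE 0.24, adjusted p = 0.0442, 1 of 12 fits). Glyma.20G118100, of the core-2/I-branching N-acetylglucosaminyltransferase family, had -1.11, -0.74 and -0.93 in DT-D10, 1.42, 1.91 and 1.71 in DT-D2, 0.52, 0.20 and 0.21 in W-D10 and 0.79, 1.03 and 1.44 in W-D2. The fall was steep in DT2008 (-2.60) and under 2-fold in W82 (-0.78), with an interaction of -1.83 (SE 0.27, adjusted p = 0.0155, 9 of 12 fits). A second gene of that family, Glyma.10G272000, chosen after its values were seen, had -2.44 in DT2008, -0.47 in W82 and an interaction of -1.96 (SE 0.39, adjusted p = 0.0473, 2 of 12 fits).

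In some called genes, among them the EF-hand gene above, the cultivar difference was called at 10 h and not at 2 h. Glyma.19G181600, which has no description in the sources used here, had 1.32, 1.18 and 1.17 in DT-D10, -0.04, 0.57 and -0.02 in DT-D2, 2.84, 3.20 and 2.70 in W-D10 and -0.11, 0.02 and 0.12 in W-D2. At 2 h the cultivars overlapped, and at 10 h all W82 arrays were higher (DT-D10/W-D10 -1.69, adjusted p = 7.16e-05). Its interaction of -1.85 (SE 0.26, adjusted p = 0.0136) was called in 10 of the 12 fits. Glyma.16G116200, a WD40-repeat protein, had the same order, with 1.15 in DT2008, 2.31 in W82 and an interaction of -1.16 (SE 0.22, adjusted p = 0.0447, 2 of 12 fits).

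The 16 named positive calls included nitrogen transport, transcription and metabolism. Glyma.01G123400 matches the ammonium transporter AMT2. It had -0.44, -0.35 and -0.27 in DT-D10, -0.20, -0.33 and -0.19 in DT-D2, -0.20, 0.04 and -0.04 in W-D10 and 1.42, 2.26 and 1.72 in W-D2. W-D2 was far above the other dehydrated groups, which lay close together. Well-watered means were 0.06 in DT-C and 2.15 in W-C. The transcript fell by 1.87 in W82, with -0.12 in DT2008, giving an interaction of 1.75 (SE 0.26, adjusted p = 0.0155, 9 of 12 fits). The cultivar difference was -2.09 in well-watered roots, close to the -2.04 at 2 h, and -0.29 at 10 h. Among 34 nitrate, ion and sugar transporters AMT2 and CHX15 were the only calls, 1 in each direction (2.94% each, median -0.17).

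Glyma.02G234600 matches LBD13, of the LOB-domain transcription factors. It had -0.36, 0.07 and 0.23 in DT-D10, -1.27, -1.19 and -1.27 in DT-D2, -0.76, -0.49 and -0.44 in W-D10 and 0.50, 0.27 and -0.21 in W-D2. DT-D2 was the lowest group in all arrays, and the cultivars changed in opposite directions, by 1.22 in DT2008 (called) and -0.75 in W82 (adjusted p = 0.0268, under 2-fold). The interaction was 1.97 (SE 0.27, adjusted p = 0.0136, 10 of 12 fits). In well-watered roots the difference was -1.11 (adjusted p = 0.00294).

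Cytochrome P450 monooxygenases had 2 positive calls (5.13%) and 1 negative (2.56%, the CYP707A1 match) among 39 probes, with a median of -0.09. Glyma.10G115300, a match of CYP71B34, had 0.36, 0.00 and 0.30 in DT-D10, -0.06, -0.09 and 0.47 in DT-D2, -0.22, -0.83 and -0.95 in W-D10 and 1.32, 0.98 and 0.97 in W-D2. The DT2008 values of the 2 times overlapped, while all W82 values lay below those of DT2008 at 10 h and above them at 2 h. The interaction was 1.87 (SE 0.30, adjusted p = 0.0241, 6 of 12 fits). Glyma.09G049100, a match of CYP81D3, fell by 1.73 in W82, with -0.45 in DT2008 (interaction 1.27, SE 0.21, adjusted p = 0.0255, 5 of 12 fits).

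In 2 other positive calls DT-D2 was the lowest of the 4 dehydrated groups. Glyma.17G230100, a match of NDL2, of the N-MYC downregulated-like family, had 0.04, -0.06 and 0.26 in DT-D10, -0.88, -1.31 and -1.87 in DT-D2, -0.04, 0.33 and 0.18 in W-D10 and 0.29, 0.23 and 0.20 in W-D2. It rose by 1.43 in DT2008, with -0.09 in W82, and the 10 h values of the cultivars overlapped (interaction 1.52, SE 0.29, adjusted p = 0.0442, 1 of 12 fits). PPCK3, a kinase gene named on the array for phosphoenolpyruvate carboxylase kinase, had 0.17, 0.03 and -0.02 in DT-D10, -0.56, -1.10 and -0.88 in DT-D2, 0.07, -0.11 and 0.02 in W-D10 and 0.37, 0.37 and 0.45 in W-D2. Its interaction was 1.31 (SE 0.21, adjusted p = 0.0237, 5 of 12 fits). In well-watered roots the cultivar difference was -1.11 for NDL2 (adjusted p = 0.00258) and -0.99 for PPCK3 (adjusted p = 0.00481), just under 2-fold. The DT-C means, -1.08 for NDL2 and -0.93 for PPCK3, lay near the DT-D2 means of -1.35 and -0.85.

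Glyma.03G218700, a match of the beta-xylosidase BXL2, which trims wall xylans, fell by 1.37 in W82, with -0.19 in DT2008 (interaction 1.18, SE 0.19, adjusted p = 0.0251, 6 of 12 fits). Glyma.02G093200, a heat shock protein 70 chaperone, was unlike the rest. It had 3.17, 3.07 and 2.97 in DT-D10, 1.26, 1.54 and 1.52 in DT-D2, -1.40, -1.75 and -1.50 in W-D10 and -2.00, -2.01 and -2.17 in W-D2. DT2008 was far above W82 throughout, by 4.62 at 10 h, 3.50 at 2 h and 3.83 in well-watered roots. The rise of 1.63 in DT2008 was larger than the 0.51 in W82 (interaction 1.12, SE 0.20, adjusted p = 0.034, 4 of 12 fits). It was the 1 call among 38 heat shock proteins and chaperones (2.63%, median -0.17).

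**Figure D5:**
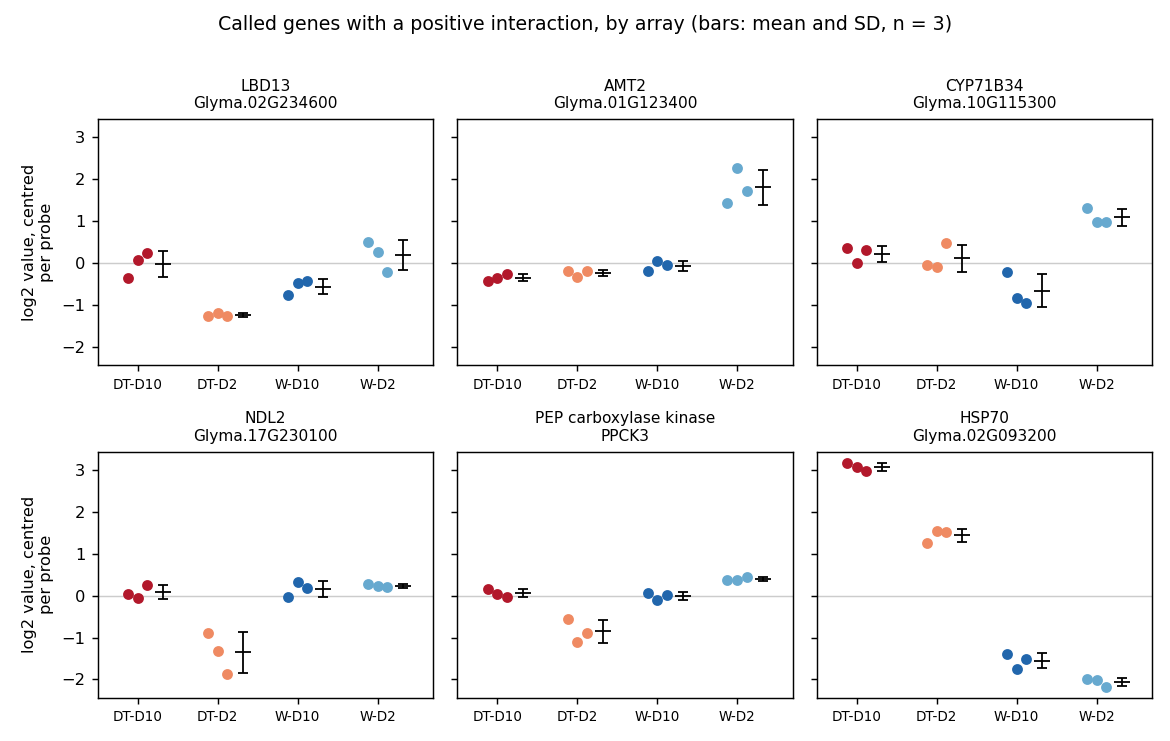
Centred log2 values of 6 called genes with a positive interaction on the 12 arrays (points), by group from DT-D10 to W-D2, with mean and SD (n = 3) at the right of each group. W-D2 is the high group in AMT2 and CYP71B34, DT-D2 the low group in LBD13, NDL2 and PPCK3, and HSP70 is above 1 in every DT2008 array and below -1 in every W82 array.

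The 7 calls that held whichever array was left out comprised 5 negative and 2 positive probes. The only one paired with a gene was LOC100500298, which has no description in the sources used here. It had -1.10, -1.26 and -1.06 in DT-D10, 0.11, 0.36 and 0.45 in DT-D2, 0.21, 0.03 and 0.22 in W-D10 and -0.10, 0.12 and 0.05 in W-D2. Among the dehydrated groups DT-D10 alone lay apart. In well-watered roots the values were -1.10, -1.81 and -0.76 in DT-C and 0.17, -0.03 and -2.09 in W-C. The DT-C mean of -1.22 lay near the DT-D10 mean of -1.14, and the W-C arrays were widely spread (SD 1.25). The transcript fell by 1.45 in DT2008, with 0.13 in W82, and the interaction was -1.57 (SE 0.19, adjusted p = 0.0136), between -1.67 and -1.50 without 1 array. The call was lost with all 18 arrays in the fit (adjusted p = 0.214) and with the methods' t-test (adjusted p = 0.0508).

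The lowest adjusted p of all, 0.00404, belonged to probe 11947052, which has no gene pairing here and was chosen after its values were seen. It rose by 2.49 in W82, with -0.22 in DT2008 (interaction -2.71, SE 0.26), and the cultivars differed by -2.98 at 10 h and -0.27 at 2 h. The 2 positive ones were probe 12110095, with 0.91 in DT2008 and -0.87 in W82 (interaction 1.78, SE 0.22), and probe 12210022, with 1.85 in DT2008 and 0.08 in W82 (interaction 1.77, SE 0.21), both at an adjusted p of 0.0136.

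Of the genes that the study put forward as candidates or measured by RT-qPCR, 4 were called, all negative. They were the matches of CHX15, GolS2 and XTH23 and Glyma.04G083000, a match of AT3G22810, a protein of unknown function with a pleckstrin homology-like region. Glyma.04G083000 had 0.73, 1.00 and 0.66 in DT-D10, 0.89, 1.30 and 1.15 in DT-D2, 0.36, 0.78 and 0.54 in W-D10 and -0.49, -0.91 and -0.36 in W-D2. The cultivars overlapped at 10 h and were 1.70 apart at 2 h, after 1.39 in well-watered roots, and the interaction was -1.47 (SE 0.25, adjusted p = 0.0309, 5 of 12 fits).

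The RT-qPCR primers that the study lists for these 4 called genes are printed because the same transcripts can be measured again with them. The expression values from RT-qPCR were not analysed here.
GolS2 match Glyma.19G227800, first primer: actgtccaactcaccaagcc
GolS2 match Glyma.19G227800, second primer: tccttcccagtgaacctcca
CHX15 match Glyma.04G212200, first primer: actcagtggccgaacatcag
CHX15 match Glyma.04G212200, second primer: tgctgttaagggctggactg
XTH23 match Glyma.13G095200, first primer: cggctcaaacaacccttcct
XTH23 match Glyma.13G095200, second primer: ggaaggccctgtggaaatct
AT3G22810 match Glyma.04G083000, first primer: agttccttgcgagatcatgg
AT3G22810 match Glyma.04G083000, second primer: aagctttggaagcagtggaa

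The other study genes were not called. The bZIP42 match Glyma.08G254400 had -1.09 (SE 0.25, adjusted p = 0.0868) and the MTM1 match Glyma.20G189100 -1.02 (adjusted p = 0.0638). For GmNAC101 (Glyma.13G279900) the interaction was -0.44 and for GmNAC011 (Glyma.13G030900) -0.38. The largest positive value was 0.61 in the nitrate transporter NRT2.4 match Glyma.11G195200 (adjusted p = 0.283), with cultivar differences of -0.95 at 10 h and -1.56 at 2 h. At -0.16, the interaction of the BIN2 kinase match Glyma.02G069400 was the smallest in size among the 10 that were not called, together with that of Glyma.14G216500 (0.16).

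The labelled tissue could be checked only by movement, as the values hold no level. The 9 photosynthesis probes, markers of shoot tissue, had 0 calls and a median interaction of -0.49, with 8 of 9 below 0 and 4 at an unadjusted p under 0.05. Their median change was -0.34 in DT2008 and 0.19 in W82, and the median cultivar difference was -0.05 at 10 h and 0.57 at 2 h. The part of shoot RNA in the negative interactions was not tested. The 20 nodulin and leghemoglobin probes, markers of nodules, had 0 calls and a median of 0.04.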

How the data were processed

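Roots of both cultivars were hybridized to the 66K soybean GeneChip. The deposited log2 values were made by the authors with RMA, run in Affymetrix Expression Console according to the submitters' processing notes, and the methods name GeneSpring for later steps. Versions of RMA and Expression Console are not given in the sources used here. Each probe of the deposited log2 table is centred on its median over 18 arrays, which removes brightness. No new scaling was applied.

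Group means of the 12 dehydrated arrays were fitted in R 4.3.3 by lmFit, contrasts.fit and eBayes of limma 3.58.1, with Benjamini-Hochberg adjustment over 66195 probes and 8 residual and 5.86 prior degrees of freedom. DT-C/W-C was fitted on the 6 well-watered arrays alone. The number of arrays limits the precision. The fit was also run on simulated data with independent noise and no outlying array, so that run does not bear on the dependence on single arrays. The interaction, the gene lists and the genes named were chosen with earlier results of these data known. The study's tables and the array symbols paired 5833 probes with exactly 1 gene. Named were called genes that held without any 1 array, up to 4 called members per gene list and per class of change with the lowest adjusted p, and the candidate and RT-qPCR genes of the study. Not all of these are given, and the study's own comparisons and RT-qPCR values were not used. Alternatives were an ordinary t-test of the interaction, all 18 arrays, a replicate block, median centring, quantile normalization, arrayWeights, and trend and robust eBayes. Further ones were other fold thresholds, probes with 1 gene, and leaving out each array. The ordinary t-test left out the eBayes step and pooled the variance over the groups of the fit. The study's methods name a Student's t-test but no test of an interaction. Figures were drawn with Matplotlib 3.10.9 in Python 3.11.15. Primer sequences come from the study's supplement, and promoter sequences were not used here.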

Additional observations from a re-analysis of the deposited data

Results flagged for a closer look

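The change from 2 to 10 h differed between the cultivars by a test of the difference itself in 262 probes. The same test, with every array left out in turn, singled out 1 named gene, LOC100500298, with an interaction of -1.57. However, LOC100500298 did not pass with all 18 arrays in the fit (adjusted p = 0.214) or with an ordinary t-test (adjusted p = 0.0508).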

How the results depend on the processing

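The t-test, the replicate block, all 18 arrays and trend and robust eBayes left the estimates unchanged, so no sign could change there. With median centring, quantile normalization, arrayWeights and the fits without 1 array, all 262 called probes also kept their sign. They had been chosen for an interaction of at least 2-fold on these arrays, which makes a change of sign unlikely. Among named genes only 2 uncalled values near 0 changed sign, Glyma.02G069400 (0.02 without W-D2 replicate 2) and Glyma.14G216500 (-0.05 without W-D10 replicate 1). The number of calls moved widely. All calls numbered 249 with array median centring (all of them among the 262), 322 with quantile normalization (236 shared), 314 with all 18 arrays in the fit (202 shared) and 276 without a fold threshold or with one of 1.5-fold. It was 714 with arrayWeights, which gave DT-D2 replicate 1 and W-D10 replicate 3 weights of 0.583 and 0.486, and 50 with trend and robust eBayes. Adjusted over only the 5833 probes with 1 gene, 191 passed, 54 of them positive, against 76 and 16 of these probes in the main fit. This set holds the 1414 probes that the study selected on these same arrays, so its count is no check of the 262. The ordinary t-test per probe gave 1 call, 7697 probes at an unadjusted p under 0.05 and 5 after adjustment.

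Positive calls numbered 0 with the t-test, 289 with arrayWeights and 24 with trend and robust eBayes, and negative calls 1, 425 and 26. The class with a rise in W82 and no call in DT2008 held 1, 156 and 13 probes in the same 3 settings. Negative probes called at 2 h and not at 10 h numbered 0, 217 and 14, and 133 with quantile normalization, and the positive ones 0, 161 and 14. Called probes with a DT-C/W-C call numbered 0, 130 and 16. Over the fits without 1 array the ranges were 9 to 1263 for all calls, 2 to 630 for positive and 6 to 633 for negative ones, 4 to 185 for the W82 class, 2 to 383 and 1 to 424 for the 2 h classes, and 2 to 220 for probes with a DT-C/W-C call.

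Same-numbered arrays of different groups had residual correlations of -0.175 to 0.107 (median -0.012), against -0.216 to 0.189 (median -0.001) for different-numbered ones. These values gave no sign of pairing by replicate number, but they cannot tell whether samples were handled together. With the replicate block 172 probes were called (151 shared), 55 of them positive, and 30 positive probes were called at 2 h only. The cause of these shifts was not tested.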

Other observations

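Several gene groups had most interactions on 1 side of 0 and no call. The 24 probes of jasmonate synthesis and JAZ repressors, genes of the wound hormone pathway, had 0 calls, 18 interactions below 0 and a median of -0.20, with 15 of them selected by the study. The allene oxide cyclase match Glyma.13G047300 had -0.87 (adjusted p = 0.114) and the OPR3 match Glyma.17G049900 -0.80 (adjusted p = 0.128). The trehalose-phosphate phosphatase match Glyma.12G005200 came closest to the threshold among 9 trehalose and starch probes, with 0.55 in DT2008, 1.42 in W82 and an interaction of -0.87 (adjusted p = 0.0535). Of 28 glutathione S-transferases, detoxification enzymes of which 8 had been selected, 23 lay below 0 with a median of -0.27 and 0 calls. The 15 cytosolic ribosomal proteins had a median of 0.30 and 0 calls, with 11 above 0.

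Among the 26 class III peroxidases, 8 had a positive interaction at an unadjusted p under 0.05, none of them called, and 3 a negative one, of which 1 was called. Called genes also included 2 matches of SOM, a zinc finger protein of light-dependent germination in Arabidopsis, Glyma.06G290100 with -1.54 (adjusted p = 0.0432) and Glyma.12G116900 with -1.48 (adjusted p = 0.0267), which were picked out after their values were seen. Glyma.07G023000, a match of NDF1, a subunit of the chloroplast NDH complex, had an interaction of -2.67 (SE 0.51, adjusted p = 0.0442), with -0.58 in DT2008 and 2.09 in W82, and was also chosen after its values were seen.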
